A study of Rattus norvegicus with 10 samples.

Results

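The protocadherins are the largest subfamily of the cadherin adhesion proteins, and the genes described here are all those whose symbol begins with Pcdh in a table of estimated gene counts from rat hippocampus. There were 49 such genes among 17168 symbols. The clustered genes numbered 39, made up of 15 alpha, 11 beta and 13 gamma genes, and the non-clustered genes numbered 10. Pcdh1 and Pcdh10 were not analysed here.

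Clustered protocadherins stand in tandem arrays on one chromosome. Each alpha and gamma gene has its own promoter and a variable first exon that is spliced to constant exons shared by its whole class, whereas each beta gene is carried on a single exon. A neuron expresses a subset of these genes, and the proteins on its surface recognise identical proteins on other membranes, which serves self-avoidance of branches and the arborisation of dendrites in the hippocampus and elsewhere. Promoter choice depends on DNA methylation and on CTCF and cohesin bound at a conserved promoter element. The non-clustered delta protocadherins are separate genes with roles in synapse formation, axon growth and the turnover of adhesion at spines.

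RNA had been sequenced from the left hippocampus of 10 female TgF-344AD rats, a model of Alzheimer's disease whose mutant human amyloid precursor protein and presenilin transgenes are driven by the mouse prion promoter (the promoter and transgenes are general knowledge of the line and were not checked here). All 10 animals had the genotype Tg-AD and were killed at 11 months of age after perfusion with cold saline. The 5 untreated animals ate rodent chow, and the 5 RG2833 animals ate chow with 750 mg RG2833 per kg from 5 months of age, for 6 months. RG2833 inhibits the histone deacetylases HDAC1 and HDAC3. A blue food dye told the chows apart, and the labels do not say which chow carried it. The only comparison in the design is RG2833 against untreated, and it asks how the drug changes hippocampal gene expression. No wild-type animals were analysed here, so the values say nothing of the transgenes' own effect.

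Total counts per library lay between 8764266 and 11311673, and the floor of 3 counts corresponded to 0.268 to 0.343 CPM. Levels are given in CPM, counts scaled to the library total after its correction by the trimmed mean of M values (TMM), and changes are log2 fold changes of RG2833 over untreated with their standard error (SE) from edgeR's quasi-likelihood test over all 11791 genes that passed a filter on low counts. A gene was called at a Benjamini-Hochberg adjusted p under 0.05. Markers of hippocampal neurons were present in every library, but some libraries stood apart. In untreated replicate 1 the choroid plexus and ependyma markers summed to 2469 CPM, against 9.92 to 55.4 CPM in the other 9 libraries. Untreated replicate 4 lay among the RG2833 libraries on the first principal component of all genes, at 11.5 against 9.18 to 25.3, while the other 4 untreated libraries lay between -27.8 and -13.8. RG2833 libraries were also more alike across genes than untreated ones. The chi-square per degree of freedom between 2 libraries was 4.60 to 10.2 for RG2833 pairs and 16.3 to 36.3 for untreated pairs. Ribosomal RNA took 2.70 to 5.36% of counts in untreated and 1.13 to 1.96% in RG2833 libraries, without overlap. Excitatory neuron markers summed to 4875 to 6747 CPM in untreated and 6873 to 7523 CPM in RG2833 libraries, again without overlap, and 1 of the 7 markers was called (Camk2a, higher). General neuron markers summed to 5152 to 7481 CPM and 7152 to 8590 CPM, with 1 of 7 called (Rbfox3, higher, log2 fold change 0.57, adjusted p = 0.0400, edgeR). Microglia markers summed to 409.5 to 664.2 CPM and 405.9 to 517.9 CPM, with 1 of 7 called (Aif1, lower, -0.74, adjusted p = 0.0496, edgeR). No listed marker was under 1 CPM in every animal. In bulk tissue, fewer cells of a type and less RNA per cell cannot be told apart.

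Pcdha12 and Pcdhga12, an alpha and a gamma gene, rose with RG2833, and no protocadherin was called lower. These were 2 of the 48 tested genes, or 4.17%, where 5.08% of all tested genes were called in either direction and 2.41% were called higher. Groups did not overlap for 2 genes, Pcdhgb8 and Pcdh8 (4.17%), against 7.27% of all tested genes, and both of these were higher in RG2833, against 3.8% of all tested genes. An unadjusted p under 0.05 was reached by 11 genes (22.9%), against 24.5% of all tested genes. All 11 had a fold change above 0. By these counts the share of called protocadherins was near that of other genes.

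The direction of the fold changes was less even. Of the 48 genes, 38 (79.2%) had a log2 fold change above 0, against 49.4% of all tested genes. The median was 0.18 for the protocadherins, with a range of -0.50 to 1.02, and -0.00 over all tested genes. Of the 3 lists of related genes, 2 leaned the same way: 17 of 24 other cadherin superfamily genes (70.8%) and 27 of 36 protocadherin partners and downstream genes (75%) were above 0, with medians of 0.11 and 0.10. Of the cluster regulators 10 of 21 (47.6%) were above 0, with a median of -0.01. The lean was not tested as particular to protocadherins. The count above 0 was also 38 under DESeq2 size factors and under library totals alone. It was 28 of 48 (58.3%) with the ribosomal RNA share in the model and 29 of 48 (60.4%) with the excitatory neuron score in it, against 47.98 and 49.96% of all tested genes. Genes of 1 family are not independent of each other, and no test was made over them. DESeq2's Wald test called 6 protocadherins, all higher (Pcdha12, Pcdhga12, Pcdhgb8, Pcdhb3, Pcdh8 and Pcdh9), and 10.9% of all genes. The number of calls changed with single libraries. Leaving out each animal in turn gave 0 calls in 7 of 10 fits, 1 without RG2833 replicate 4, 5 without untreated replicate 5 and 7 without untreated replicate 4. Calls over all genes changed as well. In the fit without untreated replicate 4, edgeR called 7 of 49 protocadherins and 13.1% of all genes. Without untreated replicate 1, the library with the choroid plexus markers, edgeR called 0 of 49 protocadherins and 1.63% of all genes, 11 protocadherins had an unadjusted p under 0.05, 34 were above 0 and their median was 0.14.

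**Figure D1:**
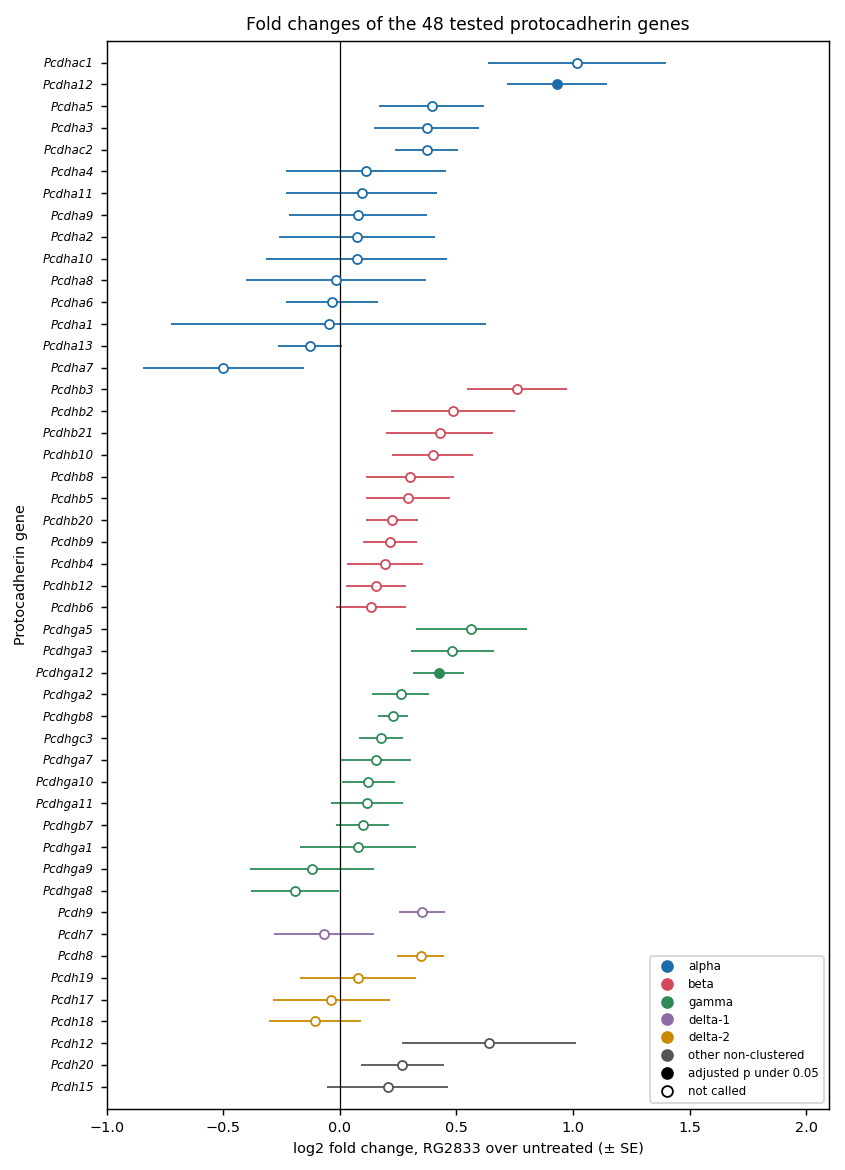
Log2 fold change of RG2833 over untreated (points) with its standard error (bars) for the 48 tested protocadherin genes, coloured by class, with filled points at an adjusted p under 0.05. Beta genes all lie to the right of 0, alpha genes spread from -0.50 to 1.02 with wide errors, and only Pcdha12 and Pcdhga12 are filled.

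The promoters of the clustered genes show what the classes share in sequence. RefSeq promoters of build GRCr8, from 250 bases before to 50 bases after each gene's start, were found by symbol for 33 of the 49 genes, among them 11 beta, 12 gamma and 1 alpha gene. GRCr8 is not the build of the counts, which is rn6 per the submitters' processing notes, so the sequences describe the genes and not the sequenced reads. The windows below are the promoter element of 4 beta and 4 gamma genes with high levels or small p-values, chosen among those that hold the motifs given below (Pcdhgc3, with the highest gamma level, holds neither), on the plus strand, 5′ to 3′, with the shared core CGCT in capitals. All 8 lie on chromosome 18, and beta genes come first.

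Pcdhb3, chr18:29285599-29285638: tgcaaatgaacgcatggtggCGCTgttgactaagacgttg
Pcdhb10, chr18:29391773-29391812: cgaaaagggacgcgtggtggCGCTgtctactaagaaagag
Pcdhb5, chr18:29302399-29302438: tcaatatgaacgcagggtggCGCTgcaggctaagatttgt
Pcdhb9, chr18:29379243-29379282: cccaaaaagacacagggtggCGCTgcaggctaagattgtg
Pcdhga12, chr18:29843857-29843896: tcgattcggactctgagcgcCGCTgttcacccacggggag
Pcdhgb8, chr18:29839491-29839530: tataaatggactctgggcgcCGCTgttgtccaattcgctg
Pcdhga2, chr18:29745078-29745117: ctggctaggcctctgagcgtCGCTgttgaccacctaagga
Pcdhga3, chr18:29750310-29750349: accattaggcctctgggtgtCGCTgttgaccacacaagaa

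All 4 beta windows read gtggCGCTg around the core, and the 4 gamma windows carry CGCTgtt, as does the window of Pcdhb3. Searched on both strands, GTGGCGCTG occurred in 11 of 11 beta promoters, in 0 of 12 gamma promoters and in 0.517% of all 33469 promoters in the table. What the 4 gamma windows share from the core on, CGCTGTTNNCC, occurred in 9 of 12 gamma promoters, in 0 of 11 beta promoters and in 0.26% of all promoters. The 9 include the 4 it was read from, whose match was fixed in advance. The common part of both motifs, CGCTG, was found in 37.0% of all promoters. The gamma promoters without the longer motif were those of Pcdhga1, Pcdhga11 and Pcdhgc3. None of the 9 non-clustered promoters held either of the longer motifs. The core lay 47 to 224 bases (median 64) before the beta starts and 20 to 98 bases (median 49) before the gamma starts. The motifs were spelled out after the sequences had been looked at, and a match is a run of letters, not a site shown to be bound.

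The whole 300-base promoter follows for Pcdhga12, the called gamma gene, with CGCTGTTCACC in capitals, and for Pcdhb3, the beta gene with the smallest p-value, with GTGGCGCTG in capitals.

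Pcdhga12, chr18:29843647-29843946: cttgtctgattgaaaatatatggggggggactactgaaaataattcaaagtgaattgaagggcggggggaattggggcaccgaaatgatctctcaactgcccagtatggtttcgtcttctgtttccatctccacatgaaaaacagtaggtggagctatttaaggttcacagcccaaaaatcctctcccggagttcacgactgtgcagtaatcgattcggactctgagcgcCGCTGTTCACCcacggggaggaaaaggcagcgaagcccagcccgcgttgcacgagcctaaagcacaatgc
Pcdhb3, chr18:29285425-29285724: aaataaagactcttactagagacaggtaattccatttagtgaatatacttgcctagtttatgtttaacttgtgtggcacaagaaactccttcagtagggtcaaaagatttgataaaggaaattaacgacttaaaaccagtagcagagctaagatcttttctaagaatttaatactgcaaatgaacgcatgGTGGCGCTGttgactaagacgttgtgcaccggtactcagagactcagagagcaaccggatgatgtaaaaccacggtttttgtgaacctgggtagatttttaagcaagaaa

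Among the 15 alpha genes, 10 had a fold change above 0 and 5 below, with a median of 0.08, and 1 was called. The median was -0.05 without untreated replicate 2, 0.03 without untreated replicate 1, 0.20 without untreated replicate 3 and 0.25 without untreated replicate 5. It was 0.13, 0.14 and 0.12 without RG2833 replicates 1, 2 and 4. Pcdha12 was at 6.06, 5.19, 7.51, 6.98 and 9.20 CPM in untreated replicates 1 to 5 and at 13.4, 19.5, 11.5, 8.38 and 13.8 CPM in RG2833 replicates 1 to 5. The groups overlapped only through RG2833 replicate 4, which lay below untreated replicate 5. The mean rose from 6.99 ± 1.52 to 13.3 ± 4.08 CPM (SD, n = 5), by 0.93 ± 0.22 on the log2 scale (SE, adjusted p = 0.0342, edgeR). Leaving out single animals gave log2 fold changes from 0.75 to 1.05 with adjusted p from 0.0198 to 0.0859, under 0.05 in 3 of 10 fits.

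The C-type alpha genes, Pcdhac1 and Pcdhac2, stand at the end of the alpha array. Pcdhac2, which is required for the even tiling of serotonin axons, was at 37.2, 29.97, 46.0, 43.7 and 57.01 CPM in untreated animals and at 54.1, 54.1, 54.6, 55.3 and 58.8 CPM in RG2833 animals. The RG2833 values were close together and above 4 of the 5 untreated values, and RG2833 libraries were more alike across genes than untreated ones. Its log2 fold change was 0.37 ± 0.13 (SE, adjusted p = 0.114, edgeR). Pcdhac2 also took a larger share of the alpha counts, 27.8 ± 1.998% in untreated and 31.6 ± 1.48% in RG2833 animals (SD, n = 5), without overlap. That was the only one of the 39 clustered genes (2.56%) whose share of its class did not overlap between groups. Pcdhac1, chosen after its values were seen, had the highest log2 fold change of the 48 tested genes, 1.02 ± 0.38 (SE, adjusted p = 0.127, edgeR), at means of only 1.21 and 2.45 CPM.

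Other alpha genes varied widely between animals of the same group. Pcdha1 was at 0.686, 1.099, 1.205, 1.21 and 5.82 CPM in untreated animals and at 1.24, 1.69, 5.37, 0.931 and 0.418 CPM in RG2833 animals. One animal in each group lay far above the rest, and the coefficient of variation (CV) within groups was 105%. Pcdha10 was at 2.52, 3.50, 8.34, 3.44 and 2.33 CPM in untreated animals and at 4.58, 2.23, 2.58, 7.03 and 5.02 CPM in RG2833 animals. Pcdha8 was at 4.35, 3.70, 9.27, 5.58 and 11.6 CPM in untreated animals and at 3.91, 4.19, 5.37, 13.6 and 7.32 CPM in RG2833 animals. The high animals thus differed from gene to gene: untreated replicate 5 for Pcdha1, untreated replicate 3 for Pcdha10 and RG2833 replicate 4 for Pcdha8. Pcdha13 was steadier, at 15.3, 12.3, 15.9, 14.9 and 13.8 CPM in untreated and 12.3, 14.4, 11.7, 17.1 and 10.6 CPM in RG2833 animals, with a log2 fold change of -0.13 ± 0.14 (SE, adjusted p = 0.597, edgeR). The lowest fold change of the 48 tested genes was that of Pcdha7, also chosen after its values were seen, at -0.50 ± 0.34 (SE, adjusted p = 0.392, edgeR), where RG2833 replicate 1 was at 1.91 CPM and the other 4 RG2833 animals were at 9.31 to 13.3 CPM.

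All 11 beta genes had a fold change above 0, from 0.13 to 0.76 with a median of 0.29, and edgeR called 0 of them at the 0.05 threshold. An unadjusted p under 0.05 was reached by 2 beta genes, Pcdhb3 and Pcdhb10, and DESeq2's Wald test called 1, Pcdhb3. All 11 were above 0 under each scaling and with each animal left out. With the ribosomal RNA share in the model 7 of the 11 were above 0, and Pcdhb4, Pcdhb5, Pcdhb6 and Pcdhb9 were below. With the excitatory neuron score 8 were above 0, and Pcdhb4, Pcdhb5 and Pcdhb6 were below. Pcdhb3 was at 5.26, 5.69, 6.30, 11.6 and 5.61 CPM in untreated animals and at 9.73, 12.8, 14.4, 10.9 and 11.0 CPM in RG2833 animals. Untreated replicate 4 alone reached the RG2833 range. The means were 6.90 ± 2.67 and 11.8 ± 1.84 CPM (SD, n = 5), and the log2 fold change was 0.76 ± 0.21 (SE, adjusted p = 0.0599, edgeR).

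Pcdhb10 was at 5.38, 5.19, 3.71, 6.33 and 4.55 CPM in untreated animals and at 5.06, 6.96, 6.10, 7.66 and 7.43 CPM in RG2833 animals. Its log2 fold change was 0.40 ± 0.17 (SE, adjusted p = 0.178, edgeR), with overlapping groups. Pcdhb5 was at 16.2, 13.2, 19.3, 28.9 and 22.6 CPM in untreated and 20.4, 23.7, 28.2, 24.5 and 26.3 CPM in RG2833 animals. Pcdhb9 was at 19.1, 18.7, 17.6, 25.5 and 23.3 CPM in untreated and 23.2, 21.4, 23.9, 27.7 and 24.9 CPM in RG2833 animals. In both, untreated replicate 4 was the highest untreated animal, and the log2 fold changes were 0.29 ± 0.18 for Pcdhb5 (SE, adjusted p = 0.332, edgeR) and 0.22 ± 0.12 for Pcdhb9 (SE, adjusted p = 0.275, edgeR).

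Beta genes can be ranked by level per length, since 10 of the 11 have a short single span in GRCr8, from 2340 to 3395 bases. Per kilobase of that span, untreated levels ran from 7.77 ± 2.36 CPM for Pcdhb5 and 6.57 ± 1.07 CPM for Pcdhb9 (SD, n = 5) down to 0.483 ± 0.167 CPM for Pcdhb2. Pcdhb5 and Pcdhb9 did not differ beyond their spread. Pcdhb20 at 3.29 ± 0.398, Pcdhb4 at 2.87 ± 0.612, Pcdhb6 at 2.83 ± 0.617 and Pcdhb3 at 2.70 ± 1.05 CPM per kilobase formed a middle group whose neighbours also did not differ beyond their spread. Under RG2833 Pcdhb3 was at 4.60 ± 0.719 CPM per kilobase, and Pcdhb20 at 3.84 ± 0.298, which also did not differ beyond their spread. Its share of the beta counts was 7.27% in untreated and 10.3% in RG2833 animals, with overlapping groups. Pcdhb10, whose span is 13324 bases, was left out.

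Among the 13 gamma genes, 11 had a fold change above 0, with a median of 0.16 and a range of -0.19 to 0.56. Pcdhga12 was at 47.9, 48.8, 41.0, 63.0 and 54.3 CPM in untreated animals and at 77.6, 67.2, 70.9, 59.3 and 67.5 CPM in RG2833 animals. The groups overlapped only between untreated replicate 4 and RG2833 replicate 4. The mean rose from 51.0 ± 8.21 to 68.5 ± 6.63 CPM (SD, n = 5), by 0.42 ± 0.11 on the log2 scale (SE, adjusted p = 0.0457, edgeR). Leaving out single animals gave 0.35 to 0.51 with adjusted p from 0.00687 to 0.107, under 0.05 in 2 of 10 fits.

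Pcdhgb8 was at 74.8, 88.9, 86.2, 87.5 and 77.3 CPM in untreated animals and at 98.3, 97.8, 95.5, 97.6 and 96.8 CPM in RG2833 animals. Every RG2833 animal was above every untreated one, and the RG2833 values were within 3 CPM of each other. Such closeness was not particular to Pcdhgb8, as RG2833 libraries were more alike across genes than untreated ones. The log2 fold change of 0.23 ± 0.06 missed the threshold (SE, adjusted p = 0.0615, edgeR). Pcdhga3 and Pcdhga5 also had an unadjusted p under 0.05, with log2 fold changes of 0.48 ± 0.18 (SE, adjusted p = 0.12, edgeR) and 0.56 ± 0.24 (SE, adjusted p = 0.169, edgeR). Both were chosen after their values were seen.

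Pcdhgc3, a C-type gamma gene that promotes dendrite arborisation, held the most counts of the whole family. It was at 513.6, 642.9, 528.9, 507.2 and 478.1 CPM in untreated animals and at 530.8, 596.4, 593.8, 692.1 and 605.0 CPM in RG2833 animals. The groups overlapped, and the log2 fold change was 0.18 ± 0.10 (SE, adjusted p = 0.272, edgeR). Its share of the gamma counts was 46.7 ± 4.61% in untreated and 46.1 ± 3.33% in RG2833 animals (SD, n = 5), and between 41.0 and 52.9% in single animals. Pcdhga2 was at 99.0, 105.1, 145.8, 139.3 and 131.5 CPM in untreated animals and at 174.0, 148.7, 137.5, 158.6 and 124.9 CPM in RG2833 animals. Its log2 fold change was 0.26 ± 0.12 (SE, adjusted p = 0.209, edgeR). The 2 gamma genes below 0 were Pcdhga8 at -0.19 ± 0.19 and Pcdhga9 at -0.12 ± 0.27 (SE), both chosen after their values were seen, with edgeR adjusted p of 0.565 and 0.818.

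**Figure D2:**
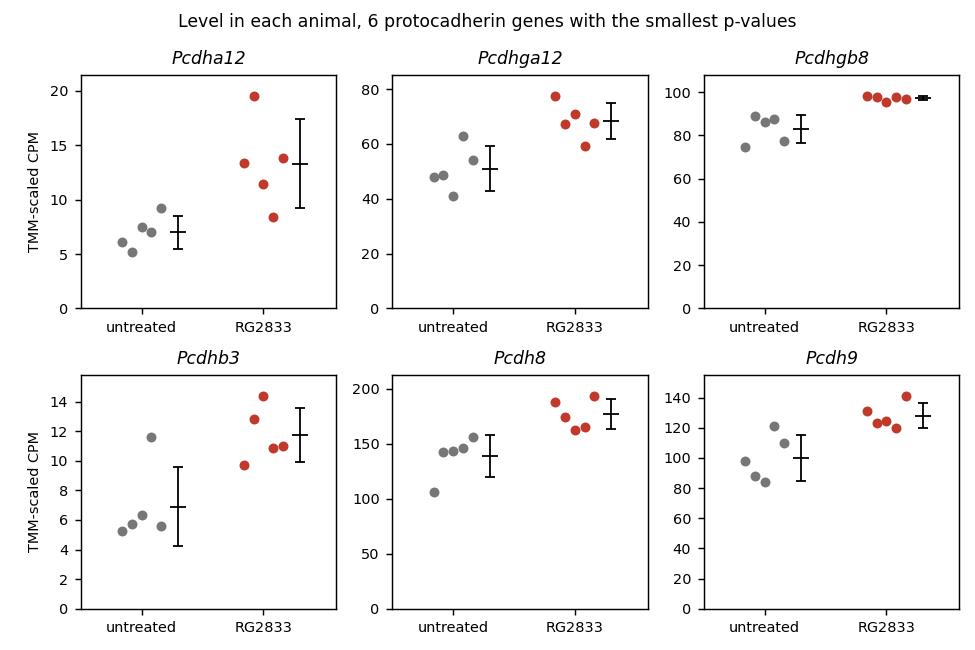
Level in TMM-scaled CPM in each animal for the 6 protocadherin genes with the smallest p-values, with untreated animals in grey and RG2833 animals in red, replicates 1 to 5 from left to right, and bars at the mean ± SD (n = 5). Pcdhgb8 and Pcdh8 are the genes whose groups do not overlap, and untreated replicate 4 is the high grey point of Pcdhb3, Pcdhga12 and Pcdh9.

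The sum over a class does not depend on how reads were divided among genes of that class. Whether reads were also divided between classes or with other genes was not tested. The gamma genes summed to 1029, 1214, 1171, 1198 and 1114 CPM in untreated animals and to 1296, 1285, 1310, 1396 and 1250 CPM in RG2833 animals. Every RG2833 animal was above every untreated one. The means were 1145 ± 75.4 and 1307 ± 54.0 CPM (SD, n = 5), 14.1% higher with RG2833. The alpha sum was 152.6 ± 27.2 and 175.7 ± 13.7 CPM (15.1% higher), and the beta sum 93.0 ± 15.9 and 114.1 ± 7.75 CPM (22.7% higher), both with overlapping groups.

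All 39 clustered genes together summed to 1242, 1419, 1415, 1474 and 1405 CPM in untreated animals and to 1559, 1566, 1606, 1686 and 1569 CPM in RG2833 animals, again without overlap. This largely repeats the gamma sum, whose means were 1145 of 1391 CPM in untreated and 1307 of 1597 CPM in RG2833 animals. Over other scalings and with each animal left out, the log2 ratio of means stayed between 0.16 and 0.22 for the clustered sum, between 0.15 and 0.21 for the gamma sum, between 0.13 and 0.30 for alpha and between 0.25 and 0.40 for beta. The groups of the gamma and clustered sums did not overlap under the other scalings either. Leaving out an animal cannot make separate groups overlap, so those fits do not test the separation. Entered in edgeR as 1 feature each, the alpha genes had a log2 fold change of 0.20 ± 0.11 and the gamma genes 0.19 ± 0.07 (SE), and neither was called. Between the groups, the excitatory neuron markers rose and the ribosomal RNA share fell with RG2833, both without overlap. With either measure as a covariate edgeR called 0 protocadherins, though it then called only 3 and 2 genes of 11791. Pcdha12 then had a log2 fold change of 1.13 with the ribosomal RNA share and 0.65 with the excitatory score, against 0.93 without. Pcdhga12 was at 0.20 and 0.22, against 0.42 without. The part of both measures in the result was not otherwise tested.

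**Figure D3:**
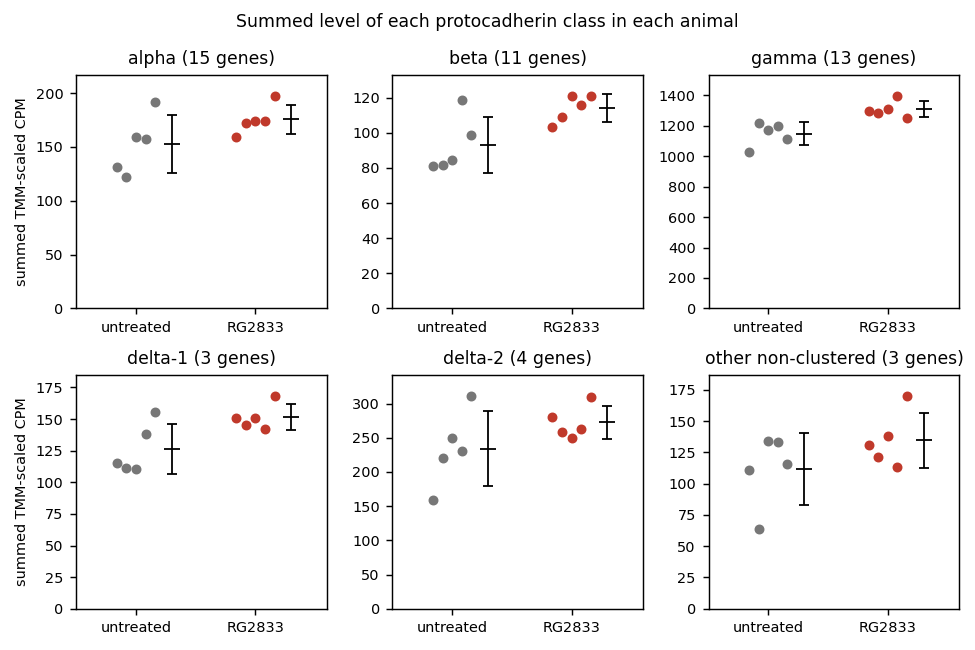
Summed level in TMM-scaled CPM of each protocadherin class in each animal, with untreated animals in grey and RG2833 animals in red, replicates 1 to 5 from left to right, and bars at the mean ± SD (n = 5). The gamma sums of 1250 to 1396 CPM in RG2833 animals lie above the untreated sums of 1029 to 1214 CPM, and the groups overlap in the other 5 classes.

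Single clustered genes were noisier than their sums, and non-clustered genes had a median spread close to that of alpha genes. The median CV within groups was 33.9% for alpha, 18.0% for beta and 19.0% for gamma genes, and 30.5% for the 9 tested non-clustered genes, against 13.4% over all tested genes, while the CV of the alpha, beta and gamma sums was 13.1, 12.1 and 5.35%. Measured against the CV that counting alone would give, the median ratio was 3.30 for alpha, 1.34 for beta, 4.35 for gamma and 4.22 for non-clustered genes, and 2.04 over all tested genes. The beta genes thus came closest to counting error. At a given CV, though, this ratio rises with the count. Mean counts were 16.3 to 225.8 for beta, 18.5 to 492.7 for alpha and 122.3 to 5707 for gamma genes. The ratios therefore do not compare the classes at an equal level. Estimated counts were fractional for 98% of alpha, 98.2% of beta and 96.2% of gamma values, for 0 of 90 values of the tested non-clustered genes and for 14.3% of values of all tested genes. A fractional value means that reads were divided among genes by the estimate, so a change of 1 clustered gene cannot be told apart from a change in that division.

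Of the delta-1 genes, Pcdh9 was at 98.04, 88.2, 84.0, 120.9 and 110.0 CPM in untreated animals and at 131.2, 123.2, 124.8, 119.7 and 141.0 CPM in RG2833 animals. Untreated replicate 4 lay just above the lowest RG2833 animal. The means were 100.2 ± 15.3 and 128.0 ± 8.41 CPM (SD, n = 5), with a log2 fold change of 0.35 ± 0.10 (SE, adjusted p = 0.0588, edgeR). Pcdh7, which binds an NMDA receptor subunit, was at 16.02, 22.4, 23.5, 17.3 and 40.1 CPM in untreated and 19.1, 21.2, 25.2, 22.0 and 26.3 CPM in RG2833 animals. Its log2 fold change was -0.07 ± 0.21 (SE, adjusted p = 0.874, edgeR), and untreated replicate 5 was the high animal. The X-linked Pcdh11x did not pass the filter. It was at 0.801, 0.799, 3.24, 0.279 and 5.71 CPM in untreated animals and at 0.572, 1.16, 1.03, 0.31 and 0.837 CPM in RG2833 animals, so that untreated replicates 3 and 5 alone were above 2 CPM.

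Of the 4 delta-2 genes, Pcdh8 stood out. Pcdh8, also called arcadlin, is induced by synaptic activity and drives the internalisation of N-cadherin at spines. It was at 105.7, 142.9, 143.4, 145.8 and 156.2 CPM in untreated animals and at 187.6, 174.7, 162.2, 165.4 and 193.3 CPM in RG2833 animals. The groups did not overlap, and the lowest value was that of untreated replicate 1, the library with choroid plexus markers. The means were 138.8 ± 19.3 and 176.7 ± 13.6 CPM (SD, n = 5), with a log2 fold change of 0.35 ± 0.10 (SE, adjusted p = 0.0639, edgeR).

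The other delta-2 genes did not share this pattern. Pcdh17, which acts at presynaptic terminals and along growing axons, was at 26.9, 31.0, 61.3, 45.6 and 81.9 CPM in untreated animals and at 41.6, 43.9, 45.9, 51.9 and 57.6 CPM in RG2833 animals. The untreated values enclosed all RG2833 values, and the log2 fold change was -0.04 ± 0.25 (SE, adjusted p = 0.945, edgeR). Pcdh19, an X-linked gene mutated in an epilepsy that affects mainly females, was chosen after its values were seen and was at 17.7, 41.8, 36.7, 34.4 and 65.3 CPM in untreated and 43.8, 36.2, 35.3, 40.2 and 51.6 CPM in RG2833 animals. Its log2 fold change was 0.08 ± 0.25 (SE, adjusted p = 0.875, edgeR). Pcdh18 was at 8.47, 4.79, 7.69, 5.49 and 7.62 CPM in untreated and 7.73, 4.37, 6.30, 5.90 and 7.32 CPM in RG2833 animals, with a log2 fold change of -0.11 ± 0.20 (SE, adjusted p = 0.781, edgeR). Pcdh7, Pcdh17 and Pcdh19 each had their highest value in untreated replicate 5, in which interneuron markers were also highest, at 804.9 CPM against 427.6 to 675.6 CPM in the other 9 animals. The part of those cells in the result was not tested.

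The remaining non-clustered genes all had a fold change above 0 and none was called. Pcdh20 was at 108.0, 60.03, 128.7, 127.8 and 109.1 CPM in untreated and 125.7, 115.5, 131.7, 109.0 and 161.1 CPM in RG2833 animals. Its log2 fold change was 0.27 ± 0.18 (SE, adjusted p = 0.371, edgeR), with 1 low untreated and 1 high RG2833 animal. Pcdh12, an endothelial adhesion protein, was at 0.458, 0.499, 1.48, 0.372 and 1.27 CPM in untreated and 1.14, 1.25, 1.03, 1.45 and 1.57 CPM in RG2833 animals. Several of its untreated values were close to the floor, and the log2 fold change was 0.64 ± 0.37 (SE, adjusted p = 0.312, edgeR). Pcdh15, a part of the tip link of hair cells, was at 2.63, 3.30, 3.89, 5.21 and 5.39 CPM in untreated and 3.91, 4.28, 5.27, 3.00 and 7.22 CPM in RG2833 animals, with a log2 fold change of 0.21 ± 0.26 (SE, adjusted p = 0.660, edgeR).

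Each animal can also be read across the family. Of the 48 tested genes, 11, 16, 26, 33 and 34 lay above the untreated mean in untreated replicates 1 to 5, and 34, 38, 37, 38 and 42 in RG2833 replicates 1 to 5. Untreated replicates 4 and 5 were thus near the RG2833 animals in this count, while untreated replicates 1 and 2 lay well below. The median log2 deviation from the untreated mean was -0.22, -0.19, 0.04, 0.08 and 0.19 in untreated animals and 0.22, 0.14, 0.28, 0.22 and 0.40 in RG2833 animals. Over all tested genes the same median stayed between -0.01 and 0.02 in every animal.

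**Figure D4:**
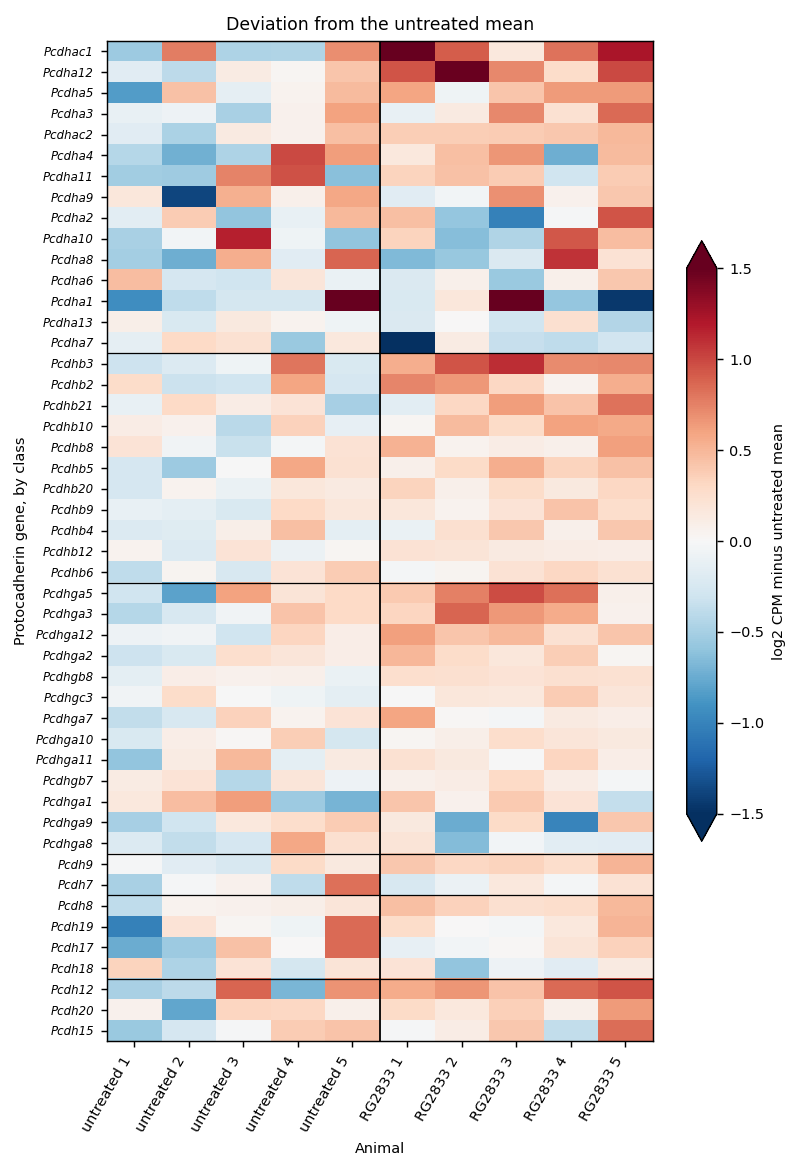
Log2 CPM minus the mean of the untreated animals (colour, red above and blue below 0) for the 48 tested protocadherin genes (rows, by class) in each of the 10 animals (columns, untreated left of the line and RG2833 right of it). Untreated replicates 1 and 2 are mostly blue, RG2833 replicate 5 has 42 of 48 genes above the untreated mean, and alpha genes change colour from animal to animal.

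Genes around the protocadherins were taken from lists chosen with earlier results of these data known. Of 25 regulators of the clustered genes (CTCF, cohesin, methylation and silencing factors), 21 were tested, 1 was called higher and 1 lower (9.52%, against 5.08% of all tested genes). An unadjusted p under 0.05 was reached by 4 (19.0%, against 24.5%). Cbx5, the heterochromatin protein HP1 alpha, fell from a mean of 34.7 ± 2.86 to one of 26.8 ± 0.987 CPM (SD, n = 5), with a log2 fold change of -0.37 ± 0.08 (SE, adjusted p = 0.0237, edgeR). Yy1, a DNA-binding factor of promoters and loops, rose from 31.5 ± 2.48 to 38.6 ± 1.87 CPM, by 0.29 ± 0.08 (SE, adjusted p = 0.0458, edgeR). Cbx3, another heterochromatin protein, was at 191.7 ± 10.3 and 156.8 ± 14.7 CPM, a log2 fold change of -0.29 ± 0.08 just outside the threshold (SE, adjusted p = 0.0502, edgeR). These 3 were picked as the smallest p-values of the list. Groups did not overlap for them or for Stag2, chosen after its values were seen. That was 4 of the 21 tested regulators (19.0%), against 7.27% of all tested genes.

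Of 40 partners and downstream genes (kinases, the WAVE complex, phosphatases, proteases and synaptic partners), 36 were tested, 3 were called higher and 0 lower (8.33%, against 5.08% of all tested genes). An unadjusted p under 0.05 was reached by 15 (41.7%, against 24.5%), and groups did not overlap for 6 (16.7%, against 7.27%). Between the groups, the excitatory neuron markers also rose and the ribosomal RNA share fell. Over the 3 lists, 23 of 80 genes had an unadjusted p under 0.05, where 24.5% of all tested genes did. With the ribosomal RNA share in the model it was 0 of 80, and with the excitatory neuron score 2 of 80. The excitatory marker sum and the ribosomal RNA share each separated the groups without overlap. A model with either can hardly tell treatment from the covariate, for any gene. No conclusion about these lists is drawn from the drop. Fyn, a Src-family kinase, rose from 131.9 ± 10.9 to 162.7 ± 4.31 CPM (SD, n = 5), by 0.30 ± 0.07 on the log2 scale (SE, adjusted p = 0.0309, edgeR). Ptk2b, the kinase Pyk2 that clustered protocadherins inhibit, rose from 1107 ± 177 to 1499 ± 65.4 CPM, by 0.44 ± 0.10 (SE, adjusted p = 0.035, edgeR). Wasf1, the actin regulator WAVE1, rose from 802.6 ± 140 to 1082 ± 30.4 CPM, by 0.43 ± 0.11 (SE, adjusted p = 0.04, edgeR). All 3 separated the groups without overlap, and untreated replicate 4 was the highest untreated animal for each.

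Of 40 other cadherin superfamily genes, 24 were tested and edgeR called 0, with 4 (16.7%) at an unadjusted p under 0.05, against 24.5% of all tested genes. The smallest p-values were those of Clstn2, a calsyntenin of synapses, at 65.1 and 93.1 CPM and 0.51 ± 0.16 (SE, adjusted p = 0.0803, edgeR), Cdh8 at 32.7 and 42.6 CPM and 0.38 ± 0.12 (SE, adjusted p = 0.0872, edgeR), and Cdh7 at 3.26 and 1.75 CPM and -0.90 ± 0.37 (SE, adjusted p = 0.156, edgeR). Of the 5 calls in the 3 lists, Cbx5 was kept in 4 of the 10 fits that left out an animal, and Yy1, Fyn, Ptk2b and Wasf1 in 2 each.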

How the data were processed

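Libraries were made from total RNA of 10 animals with a column kit and a stranded mRNA kit, per the labels' protocols. The submitters' processing notes name bcl2fastq 2.17, Bowtie2 2.1.0, RSEM 1.2.15, edgeR and the build rn6, without their roles. The annotation is not given in the sources used here. The authors deposited estimated counts from RSEM, not normalized, in which reads that fit several genes are divided among them. The authors also deposited a normalized signal, CPM after TMM scaling, used here only for limma.

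Estimated counts were rounded, filtered with edgeR's filterByExpr by group (11791 of 17168 symbols kept) and compared by the quasi-likelihood test of edgeR 4.0.16 in R 4.3.3 (TMM scaling, no covariate), with Benjamini-Hochberg adjustment over all tested genes. Columns carry different animal numbers, so each library was taken as 1 animal. Replicates were checked for duplicates: over 20 pairs the chi-square per degree of freedom was at least 4.60. Log2 CPM used a prior count of 2. Class sums used the unrounded counts. A value counted as whole within 1e-06. The floor of 3 counts covers counting error only. Scripts were tested on simulated data.

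The members and lists were chosen with earlier results of these data known. Full values were given for members that were called, did not overlap between groups, had the 2 smallest p-values or 2 highest means of their class, or were among the 3 most variable, and for the 3 smallest p-values of each other list. Any other gene was chosen after its values were seen. Alternatives were other scalings and filters, DESeq2 1.42.0, limma 3.58.1, summed alpha and gamma features, covariates, a replicate block and leaving out each animal.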

Additional observations from a re-analysis of the deposited data

Results flagged for a closer look

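In 9 of 132 groups of 5 animals (each protocadherin, each of 9 genes named from the other lists and each class sum, in each treatment group), 1 animal lay apart from the other 4 by more than 0.71 of the group's range. Chance alone gives such a gap in about 1 in 20 groups, or 6.6 of 132. Each gap is given as a fraction of the range of its group.

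Among the alpha genes, Pcdha1 was at 5.82 CPM in untreated replicate 5, where the rest of the group lay at 0.686 to 1.21 CPM (0.898), and at 5.37 CPM in RG2833 replicate 3 against 0.418 to 1.69 CPM (0.743). Pcdha10 was at 8.34 CPM in untreated replicate 3 against 2.33 to 3.50 CPM (0.806). Pcdha11 was at 3.93 CPM in RG2833 replicate 4 against 6.201 to 6.69 CPM (0.823). Pcdhac2 was at 58.8 CPM in RG2833 replicate 5 against 54.1 to 55.3 CPM (0.727).

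Pcdhb3 was at 11.6 CPM in untreated replicate 4 against 5.26 to 6.30 CPM (0.837). Fyn was at 151.3 CPM in the same animal against 125.4 to 128.9 CPM (0.866). Pcdhga7 was at 92.5 CPM in RG2833 replicate 1 against 59.8 to 67.0 CPM (0.78). Pcdh8 was at 105.7 CPM in untreated replicate 1, the library with the choroid plexus markers, against 142.9 to 156.2 CPM (0.737).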

How the results depend on the processing

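The number of protocadherins called, 2 with edgeR, was 1 with library totals only, 1 without a filter on low counts, 6 with DESeq2's Wald test, 3 with limma at either pseudocount (1 or 0.1), 6 at an adjusted p under 0.1, and 0 to 7 with an animal left out. It was 0 with alpha and gamma genes summed to 1 feature each (5 of 22 at an unadjusted p under 0.05), 0 with the ribosomal RNA share as covariate (6 of 48) and 0 with the excitatory neuron score as covariate (4 of 48). With these covariates, in that order, the log2 fold change of Pcdha12 was 1.13 and 0.65, against 0.93 without. That of Pcdhga12 was 0.20 and 0.22, against 0.42. Calls over all genes moved too, from 5.08% in the main fit to 1.63% without untreated replicate 1 and 13.1% without untreated replicate 4. The 5 calls among regulators, partners and other cadherins became 14 with DESeq2's Wald test, 15 at an adjusted p under 0.1, 0 with either covariate and 0 to 14 with an animal left out. The replicate numbers name different animals, and same-numbered animals deviated together with correlations of only -0.32 to 0.15. With a replicate block edgeR called 0 protocadherins (12 of 48 at an unadjusted p under 0.05), 0 list genes (23 of 80) and 180 genes in all, against 599 without it.

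The median of the delta-1 genes was -0.18 to 0.29 with an animal left out, where Pcdh11x passed the filter in some fits. With an animal left out, the alpha median was -0.05 to 0.25 (below 0 without untreated replicate 2) and the delta-2 median -0.06 to 0.28 (below 0 without untreated replicates 1, 2 and 4 and without RG2833 replicate 5). The delta-1 median moved by more than 1 SD between replicates in 4 fits (without untreated replicates 1, 2 and 4 and without RG2833 replicate 5). The medians of the other classes, and all class sums, moved by less than that. Of all 48 tested protocadherins, 16 changed sign with some animal left out (8 alpha, 0 beta, 4 gamma and 4 non-clustered). Among the 22 chosen by the rule for full values, fold changes that changed sign with the excitatory score were those of Pcdh15 (-0.38), Pcdh18 (0.14), Pcdh20 (-0.10) and Pcdhb5 (-0.29). With the ribosomal RNA share they were those of Pcdh15 (-0.35), Pcdh20 (-0.17), Pcdhb5 (-0.39) and Pcdhb9 (-0.19). With limma, Pcdh17 was at 0.0766 (pseudocount 0.1) and 0.0729 (pseudocount 1), and Pcdh7 at 0.000481 (pseudocount 0.1). With the replicate block, Pcdh17 was at 0.0668 and Pcdha1 at 0.0305. With an animal left out, ranges crossing 0 among these 22 were -0.19 to 0.22 for Pcdh17, -0.21 to 0.00486 for Pcdh18, -0.18 to 0.20 for Pcdh7, -0.86 to 0.85 for Pcdha1, -0.18 to 0.52 for Pcdha10 and -0.42 to 0.25 for Pcdha8. The cause was not tested. Calls higher in RG2833 were 47.4% of all calls with TMM and 38.3% with library totals only. Pcdh19, outside the rule, also changed sign, at -0.00403 with the excitatory score and -0.10 to 0.34 with an animal left out. Other fold changes moved with a covariate without changing sign. Pcdhb3 was at 0.23 with the ribosomal RNA share and 0.07 with the excitatory score (0.76 without), and Pcdh9 at 0.02 and 0.14 (0.35). Pcdh8 was at 0.48 and 0.22 (0.35 without), and Pcdhgb8 at 0.36 and 0.17 (0.23). Both means were under 3 CPM for Pcdha1, Pcdhac1, Pcdhb2, Pcdh11x and Pcdh12, so few counts lie behind their values.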
